A study of Mus musculus with 15 samples.

Results

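The renin-angiotensin system genes and collectrin were followed in PDGFRa-positive fibroblasts sorted from mouse kidney. The members were chosen by symbol: Agt, Agtr1a, Agtr1b, Ren1, Ace, Enpep, Mme, Anpep and Cltrn, each through the probe set that named it alone. A probe set was found for 8 of the 9 members, among 17097 genes with a probe set in all. Ren1, which encodes renin, was not analysed here because no probe set named it in the annotation used. Each of the 8 genes had exactly 1 probe set. The study measured RNA on 15 oligonucleotide arrays, 3 for each of 5 groups of adult C57BL/6 mice. The injury groups were kidneys 3, 7 and 14 days after folic acid, which damages tubule cells and so causes acute kidney injury, and kidneys 14 days into unilateral ureteral obstruction (UUO), in which a blocked ureter leads to progressive fibrosis. Uninjured kidneys were the fifth group. No group carried a genetic change in the labels, and all were sorted by the same receptor. The arrays are numbered as in the labels: 1 to 3 for folic acid day 3, 4 to 6 for day 7, 7 to 9 for day 14, 10 to 12 for UUO and 13 to 15 for uninjured kidney. The labels leave unsaid whether each array is a different animal, so p-values here measure only the spread between arrays, and that spread may be technical.

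In the renin-angiotensin system, renin cuts angiotensinogen to angiotensin I, and angiotensin-converting enzyme cuts that to angiotensin II, which acts on AT1 receptors of vascular, mesangial, tubule and stromal cells. Membrane peptidases then trim or destroy the peptides: aminopeptidase A and aminopeptidase N shorten angiotensin II stepwise from its amino end, and neprilysin cuts angiotensins, natriuretic peptides and kinins. In kidney, aminopeptidase A, aminopeptidase N and neprilysin are abundant on the brush border of the proximal tubule. Collectrin is a membrane protein without a peptidase domain, and it carries amino acid transporters to the brush border.

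The 2 promoters shown are those of Cltrn and Enpep, the peptidase and collectrin genes with the largest differences between groups. They are RefSeq windows on GRCm38.p6, written 5′ to 3′ on the gene's strand, 250 bases before the start and 50 after it. The capitals in Cltrn, on the plus strand at chrX:164089937-164090236, mark a match to GTTAAT and ATTAA with any 1 base between them, the binding motif of the tubule factor HNF1. The capitals in Enpep, on the minus strand at chr3:129332700-129332999, mark matches to TATAAA read on the opposite strand.
Cltrn: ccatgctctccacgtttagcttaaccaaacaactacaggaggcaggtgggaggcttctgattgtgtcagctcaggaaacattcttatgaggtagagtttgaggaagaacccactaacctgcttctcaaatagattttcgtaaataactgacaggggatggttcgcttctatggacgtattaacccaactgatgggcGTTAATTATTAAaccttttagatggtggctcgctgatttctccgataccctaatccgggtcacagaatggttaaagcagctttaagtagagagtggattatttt
Enpep: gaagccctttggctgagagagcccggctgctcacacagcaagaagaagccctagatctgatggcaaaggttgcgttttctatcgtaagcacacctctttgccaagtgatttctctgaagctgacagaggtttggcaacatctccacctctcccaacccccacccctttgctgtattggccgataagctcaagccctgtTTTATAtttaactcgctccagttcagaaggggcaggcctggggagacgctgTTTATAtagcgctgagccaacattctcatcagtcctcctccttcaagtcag

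Both motifs were searched on both strands of all 32851 mouse windows of this length in the table, and they do not overlap each other in these windows. The HNF1 letters were found in 20 windows, or 0.0609% of them, and TATAAA in 4473, or 13.6%. In Cltrn the HNF1 match lies 54 to 43 bases before the start, and a second Cltrn window, at chrX:164091939-164092238, held neither motif. The Enpep window held no HNF1 match. Of the 8 measured genes 7 had a window, and Agtr1a was not listed in the table. A match is a run of letters and no test of binding.

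The values were log2 intensities, and their array medians lay between 4.93 and 5.06. Tests were restricted to genes brighter than the 40th percentile of the array (4.54 to 4.69) on 3 or more arrays. This kept 13523 genes, among them 7 of the 8 measured members, each above that percentile in 15 of 15 arrays. Agtr1b, the second mouse AT1 receptor gene, ran from 3.60 to 4.07 in the 15 arrays, below the percentile in all of them, and was not tested. Pdgfra, the gene of the sort, averaged 6.69 on day 3 after folic acid, 5.50 on day 7, 5.28 on day 14 and 5.99 in UUO, against 6.01 in uninjured kidney, and no comparison of it was called. The 9 fibroblast markers averaged 8.50, 8.52, 8.08 and 9.42 in the same 4 injury groups, against 5.62 in uninjured kidney, where 2 to 4 of the 9 lay above the upper quartile of their array. The uninjured libraries were thus low in fibroblast markers, and they were high in tubule markers. The 11 measured proximal tubule markers averaged 6.57, 6.93, 8.26 and 5.47 in the injury groups, against 8.73 in uninjured kidney.

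Against uninjured kidney some members were lower and others higher. Agtr1a, the main AT1 receptor gene of mouse kidney, was lower in 3 of the 4 injury groups. Enpep, which encodes aminopeptidase A, and Cltrn were lower in UUO and at folic acid day 3, Enpep also at day 7, and at day 14 the arrays of both overlapped those of uninjured kidney. Ace was higher at day 7, and Anpep, which encodes aminopeptidase N, at day 14. Calls were made at an adjusted p under 0.05 in limma, over all 13523 genes. At day 3, 0 of the 7 tested members were called higher and 2 lower, where 10.6% of all genes were called higher and 6.39% lower. At day 7 it was 1 higher and 2 lower (7.5% and 4.19% of all genes), and at day 14 it was 1 higher and 1 lower (4.2% and 1.47%). In UUO 0 were higher and 3 lower (9.07% and 7.52%). The median log2 change of the 7 members was -0.29, -0.19, 0.17 and -0.07 in the same order, against 0.02, 0.01, 0.02 and -0.01 over all genes. The F test for any difference among the 5 groups called 3 members, Agtr1a (adjusted p = 0.000125), Enpep (0.00801) and Cltrn (0.00853), where it called 15.3% of all genes.

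**Figure D1:**
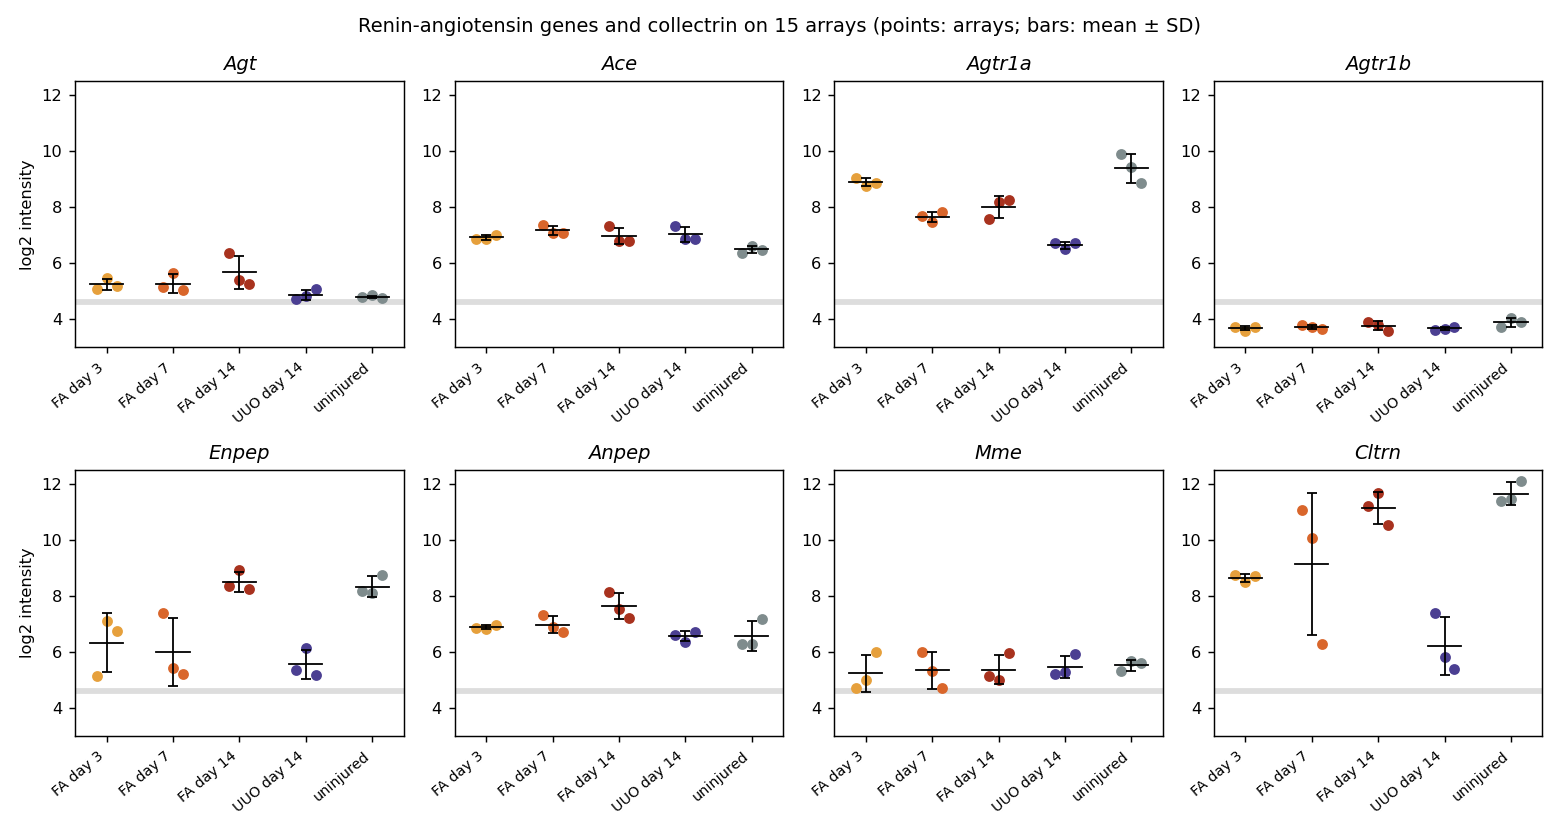
Log2 intensity of the 8 measured genes (1 panel each, shared scale) in each of the 15 arrays by group, with points for arrays, bars for the group mean and SD, and a grey band for the 40th percentile of the arrays. The 3 UUO arrays of Agtr1a sit between 6.51 and 6.73, below all uninjured arrays, and the Cltrn arrays of folic acid day 7 spread over most of the gene's range.

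Agt encodes angiotensinogen, the substrate of the system. It measured 5.10, 5.47 and 5.18 on day 3 after folic acid, 5.14, 5.66 and 5.04 on day 7, 6.36, 5.42 and 5.27 on day 14 and 4.74, 4.84 and 5.08 in UUO, against 4.81, 4.85 and 4.76 in uninjured kidney. All folic acid arrays lay above all uninjured arrays, array 7 stood apart as the highest, and UUO overlapped uninjured kidney. The differences from uninjured kidney were not called. The largest was that of day 14, a log2 change of 0.88 ± 0.26 (SE; 95% interval 0.32 to 1.44; adjusted p = 0.0671). In UUO the interval ran from -0.48 to 0.63 (adjusted p = 0.878). The UUO and day 14 arrays did not overlap, with a log2 difference of -0.80 that was not called either (adjusted p = 0.118).

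Ace encodes angiotensin-converting enzyme, which in kidney lies on endothelium and on the brush border. Its levels were 6.88, 6.88 and 7.02 on day 3 after folic acid, 7.36, 7.07 and 7.09 on day 7, 7.32, 6.81 and 6.81 on day 14 and 7.33, 6.88 and 6.88 in UUO, against 6.39, 6.63 and 6.48 in uninjured kidney. Every injured array lay above every uninjured array, and the injury groups lay close together. Ace rose at day 7, by 0.68 ± 0.17 on the log2 scale (1.60-fold; adjusted p = 0.0261). In the other groups its log2 change was 0.43 at day 3 (adjusted p = 0.113), 0.48 at day 14 (0.131) and 0.53 in UUO (0.0556), none of them called. Ace in UUO was called with median centring (adjusted p = 0.037), array weights (0.0218) and the mean of probe sets (0.0474). With 1 probe set for Ace, the last of these left its change at 0.53, and its adjusted p moved with the other genes. The day 7 call was lost with quantile normalization (0.56, adjusted p = 0.0559), and without array 4, 5, 13 or 15, with adjusted p-values up to 0.0829. The endothelial markers, of which 10 were measured, were read beside Ace. They averaged 6.39, 6.74, 6.71 and 6.01 in the injury groups, against 6.62 in uninjured kidney, and of 9 tested, 2 were called higher and 3 lower on day 3 after folic acid, 1 and 0 on day 7, 0 and 0 on day 14 and 0 and 3 in UUO. Among the folic acid days the means of both Ace and these markers were highest on day 7 and lowest on day 3, while in UUO the markers were below uninjured kidney and Ace was not; their part in the Ace result was not tested.

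Agtr1a had the smallest F test p of the 7 members. It measured 9.04, 8.76 and 8.87 on day 3 after folic acid, 7.67, 7.47 and 7.83 on day 7, 7.57, 8.19 and 8.27 on day 14 and 6.73, 6.51 and 6.72 in UUO, against 9.89, 9.42 and 8.86 in uninjured kidney. Day 7, day 14 and UUO each lay wholly below uninjured kidney, while day 3 overlapped it through array 15. The log2 change of Agtr1a was -1.73 ± 0.25 at day 7 (3.32-fold lower; adjusted p = 0.000797). At day 14 it was -1.38 (2.60-fold lower; adjusted p = 0.0065), which was not called in a fit of only the 6 arrays compared (adjusted p = 0.0801). In UUO the log2 change was -2.74 ± 0.25, a 6.68-fold lower level (adjusted p = 2.16e-05). At day 3 it was -0.50 (95% interval -1.03 to 0.03; adjusted p = 0.186), which was not called. Quantile normalization gave -0.86 and a call (adjusted p = 0.0379), and with 1 array left out the change lay between -0.77 and -0.25.

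Ranked by group mean, Agtr1a averaged 6.65 ± 0.12 in UUO, 7.66 ± 0.18 at day 7, 8.01 ± 0.38 at day 14 and 8.89 ± 0.14 at day 3, against 9.39 ± 0.52 in uninjured kidney (SD, n = 3 arrays each). Of the neighbours in that order, day 14 and day 7 did not differ beyond their spread (log2 difference 0.35, adjusted p = 0.734), nor did day 3 and uninjured kidney. Day 14 and day 3 did not overlap, but their difference of -0.88 was not called (adjusted p = 0.0781). UUO and day 7 were not compared by a test, and their arrays did not overlap. In bulk RNA such as this, fewer cells that carry the receptor and less of its RNA per cell cannot be told apart.

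Markers of other cell types were read beside Agtr1a. The 8 measured pericyte, smooth muscle and mesangial markers, of which 8 were tested, averaged 7.00 on day 3, 6.54 on day 7, 6.90 on day 14 and 6.29 in UUO, against 7.12 in uninjured kidney. Of them 2 were called higher and 0 lower on day 3, 0 and 1 on day 7, 0 and 0 on day 14 and 0 and 2 in UUO. The UUO calls were Gata3 (log2 change -2.78) and Itga8 (-1.82). The list did not move as one. Notch3 averaged 7.92, 7.36 and 7.45 on days 3, 7 and 14 and 6.27 in UUO, against 6.77 in uninjured kidney. Kcnj8 averaged 6.84, 5.75 and 5.30 on those days and 5.70 in UUO, against 5.35. The mean of the list thus blends genes that rose and genes that fell. With the mean of these 8 markers as a covariate, a setting chosen after the data were seen, the Agtr1a change was -1.83 in UUO (adjusted p = 0.00137), -1.09 at day 7 (0.00721) and -1.13 at day 14 (0.00181). Fitted with the mean of the proximal tubule markers it was -3.25 in UUO (adjusted p = 0.00248), -2.02 at day 7 (0.00236) and -1.45 at day 14 (0.00407). The 3 calls thus held with either marker mean in the fit, but some groups do not reach the means of uninjured kidney. The pericyte and mesangial mean lay between 6.16 and 6.46 in UUO and 6.35 and 6.65 on day 7, against 6.77 and 7.48. The tubule mean lay between 5.22 and 5.83 in UUO, against 8.20 and 9.45. In UUO both fits, and on day 7 the pericyte fit, thus extend a line over a gap that no array of those groups fills. The 2 measured renin cell markers averaged 5.62, 5.81, 6.10 and 5.32 in the injury groups, against 6.47 in uninjured kidney, with 2 of 2 called lower in UUO, 1 of 2 at day 7 and 0 of 2 at day 3 and day 14. Their part in the Agtr1a result was not tested.

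Enpep was lower in UUO and in the first week after folic acid, and was not called at day 14. It measured 5.13, 7.10 and 6.75 on day 3 after folic acid, 7.39, 5.41 and 5.21 on day 7, 8.34, 8.91 and 8.26 on day 14 and 5.35, 6.13 and 5.19 in UUO, against 8.17, 8.09 and 8.75 in uninjured kidney. The arrays of day 3, day 7 and UUO all lay below those of uninjured kidney, and within day 3 and within day 7 a single array stood apart from the other two. The day 14 arrays overlapped uninjured kidney.

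The log2 change of Enpep was -2.01 ± 0.58 at day 3 (4.02-fold lower; adjusted p = 0.0337), -2.33 at day 7 (5.03-fold lower; adjusted p = 0.0229) and -2.78 in UUO (6.86-fold lower; adjusted p = 0.00625). At day 14 it was 0.17, with an interval from -1.10 to 1.43 (adjusted p = 0.909). Its group means were 5.56 ± 0.51 in UUO, 6.00 ± 1.20 at day 7, 6.33 ± 1.05 at day 3 and 8.50 ± 0.35 at day 14, against 8.33 ± 0.36 in uninjured kidney (SD, n = 3 arrays each). Day 7 and day 3 did not differ beyond their spread (adjusted p = 0.914), nor did day 14 and uninjured kidney. The day 3 call was lost without array 1, 13, 14 or 15 and the day 7 call without array 5, 6, 13, 14 or 15, with adjusted p-values up to 0.126 and 0.0905. A fit of only the arrays compared also lost the day 7 call (adjusted p = 0.0646).

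Anpep measured 6.84, 6.84 and 6.98 on day 3 after folic acid, 7.32, 6.91 and 6.72 on day 7, 8.16, 7.54 and 7.22 on day 14 and 6.60, 6.37 and 6.73 in UUO, against 6.28, 6.27 and 7.19 in uninjured kidney. All 3 day 14 arrays lay above the uninjured arrays, though array 9 and array 15 nearly met, and the other groups overlapped uninjured kidney. Anpep rose at day 14, by 1.06 ± 0.28 on the log2 scale (2.08-fold; adjusted p = 0.0446). The change was 0.31 at day 3 (adjusted p = 0.493), 0.40 at day 7 (0.389) and -0.01 in UUO (interval -0.62 to 0.59; adjusted p = 0.983). The day 14 call held without array 4, 6, 9 or 15 and was lost without any other, with adjusted p-values from 0.0158 to 0.168. Quantile normalization (0.97, adjusted p = 0.066), trend and robust settings (0.0544) and a fit of only the arrays compared (0.162) lost it too. Aminopeptidase N is a brush-border enzyme like aminopeptidase A, and it is also carried by myeloid cells. The 14 measured macrophage markers averaged 6.04, 8.29, 8.14 and 6.12 in the injury groups, against 5.42 in uninjured kidney, and 8 of the 13 tested were called higher at day 14; their part in the Anpep result was not tested.

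Mme, which encodes neprilysin, was not called in any comparison. It measured 4.73, 5.01 and 5.99 on day 3 after folic acid, 6.02, 5.31 and 4.70 on day 7, 5.14, 5.00 and 5.98 on day 14 and 5.20, 5.28 and 5.91 in UUO, against 5.31, 5.67 and 5.61 in uninjured kidney. Each injury group spanned the uninjured values. The log2 changes from uninjured kidney were -0.29 at day 3 (interval -1.14 to 0.56), -0.19 on day 7, -0.16 on day 14 and -0.07 in UUO (interval -0.92 to 0.78), with an F test adjusted p of 0.972.

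Cltrn had the largest change of the 7 members in UUO, at day 3 and at day 7, and not at day 14. It measured 8.74, 8.49 and 8.72 on day 3 after folic acid, 11.07, 10.06 and 6.29 on day 7, 11.20, 11.67 and 10.53 on day 14 and 7.39, 5.83 and 5.41 in UUO, against 11.37, 11.46 and 12.11 in uninjured kidney. The UUO arrays lay far below the uninjured arrays, the day 3 arrays in between and close together, and the day 7 arrays apart from one another, with array 6 near the UUO level. Day 14 overlapped uninjured kidney through array 8.

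In UUO Cltrn was 43.2-fold lower, a log2 change of -5.43 ± 0.93 (adjusted p = 0.00184). At day 3 the change was -2.99 (7.97-fold lower; adjusted p = 0.0442), and at day 7 it was -2.50 with an interval from -4.52 to -0.49 (adjusted p = 0.104), which was not called. At day 14 it was -0.51, with an interval from -2.53 to 1.50 (adjusted p = 0.812). The group means were 6.21 ± 1.05 in UUO, 8.65 ± 0.14 at day 3, 9.14 ± 2.52 at day 7 and 11.13 ± 0.57 at day 14, against 11.65 ± 0.40 in uninjured kidney (SD, n = 3 arrays each). The tests of day 7 against day 3 (adjusted p = 0.919), of day 14 against day 7 (0.573) and of day 14 against uninjured kidney made no call, and UUO and day 3 were not compared by a test. Without array 4 the day 7 change was -3.47 and was called (adjusted p = 0.025), and without array 6 it was -1.08 (0.23). The day 3 call was lost without array 1, 2, 3, 7, 8, 9, 11, 12, 13, 14 or 15, with adjusted p-values up to 0.133. Median centring (adjusted p = 0.0502) and no filter on dim genes (0.0534) lost it too.

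**Figure D2:**
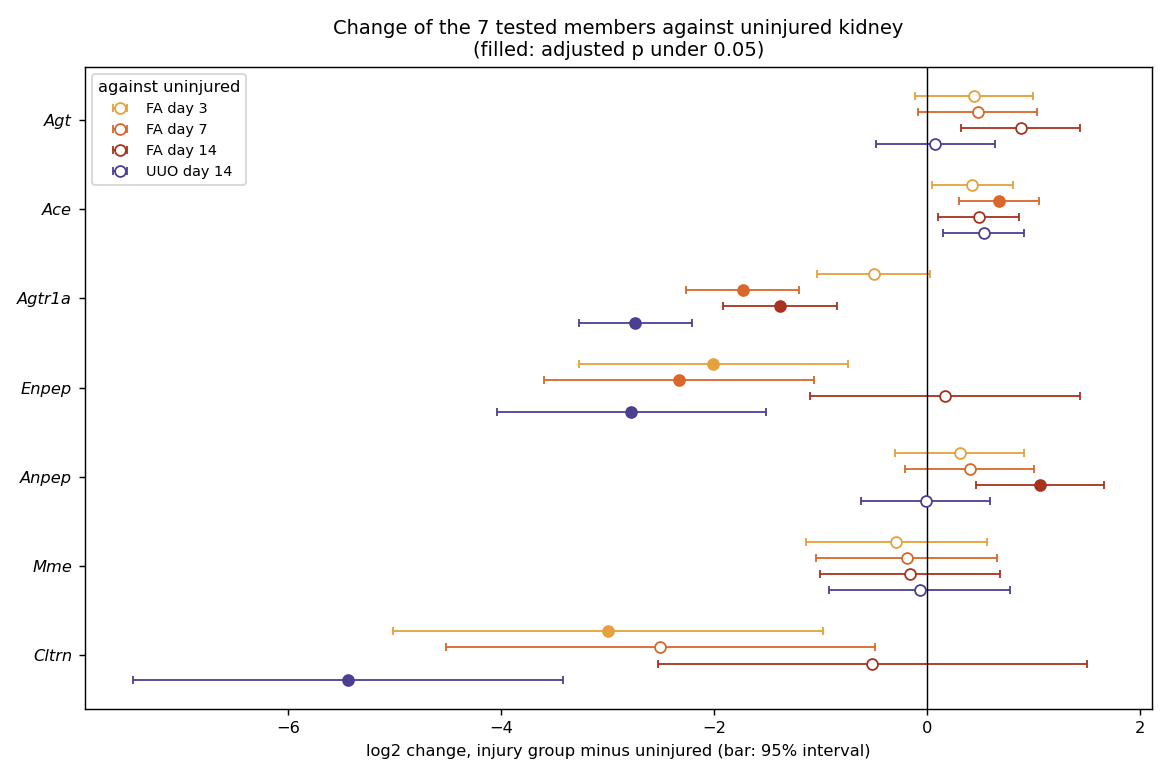
Log2 change of the 7 tested members in each injury group against uninjured kidney (horizontal axis), with 95% intervals as bars and filled points for adjusted p under 0.05. Agtr1a, Enpep and Cltrn lie left of 0 in UUO at -2.74, -2.78 and -5.43, while the day 14 points of Enpep (0.17) and Cltrn (-0.51) have intervals that span 0.

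Tubule markers moved with Cltrn and Enpep. The proximal tubule mean lay between 6.39 and 6.73 on day 3 after folic acid, 5.52 and 8.46 on day 7, 6.86 and 9.02 on day 14 and 5.22 and 5.83 in UUO, against 8.20 and 9.45 in uninjured kidney. Of its 10 tested markers 8 were called lower in UUO, 4 on day 3 after folic acid, 1 on day 7 and 0 on day 14. Array 6, with the lowest Cltrn of the day 7 group, also had the lowest tubule mean of that group, and array 4, with the highest Cltrn, had the highest. For Enpep the order did not hold everywhere: array 9, at a tubule mean of 6.86, measured 8.26, while array 4, at a mean of 8.46, measured 7.39. Array 5, at a mean of 6.81 near that of array 9, measured 5.41 for Enpep. For Cltrn array 9 measured 10.53 and array 5 measured 10.06.

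With the tubule mean as a covariate the Cltrn and Enpep calls against uninjured kidney were lost. The Cltrn change was -1.86 in UUO (adjusted p = 0.386) and -0.62 at day 3 (0.696), and the Enpep change was -1.34 in UUO (0.498), -1.05 at day 3 (0.415) and -1.53 at day 7 (0.2). The tubule means of UUO and day 3 do not reach those of uninjured kidney, so these fits extend a line over a gap that no array of those groups fills. The Anpep change at day 14 was 1.20 with that covariate (adjusted p = 0.0055), that of Ace at day 7 was 0.89 (0.0263), and that of Anpep at day 7 was 0.94 and called (0.049). With the pericyte and mesangial mean as covariate the Cltrn change in UUO was -5.82 (0.0416), and the Enpep change was -2.72 (0.121) and not called. Under it the calls of Anpep at day 14 (0.83, 0.0618), Ace at day 7 (0.55, 0.2), Cltrn at day 3 (-3.05, 0.0538) and Enpep at day 7 (-2.29, 0.124) were lost too.

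**Figure D3:**
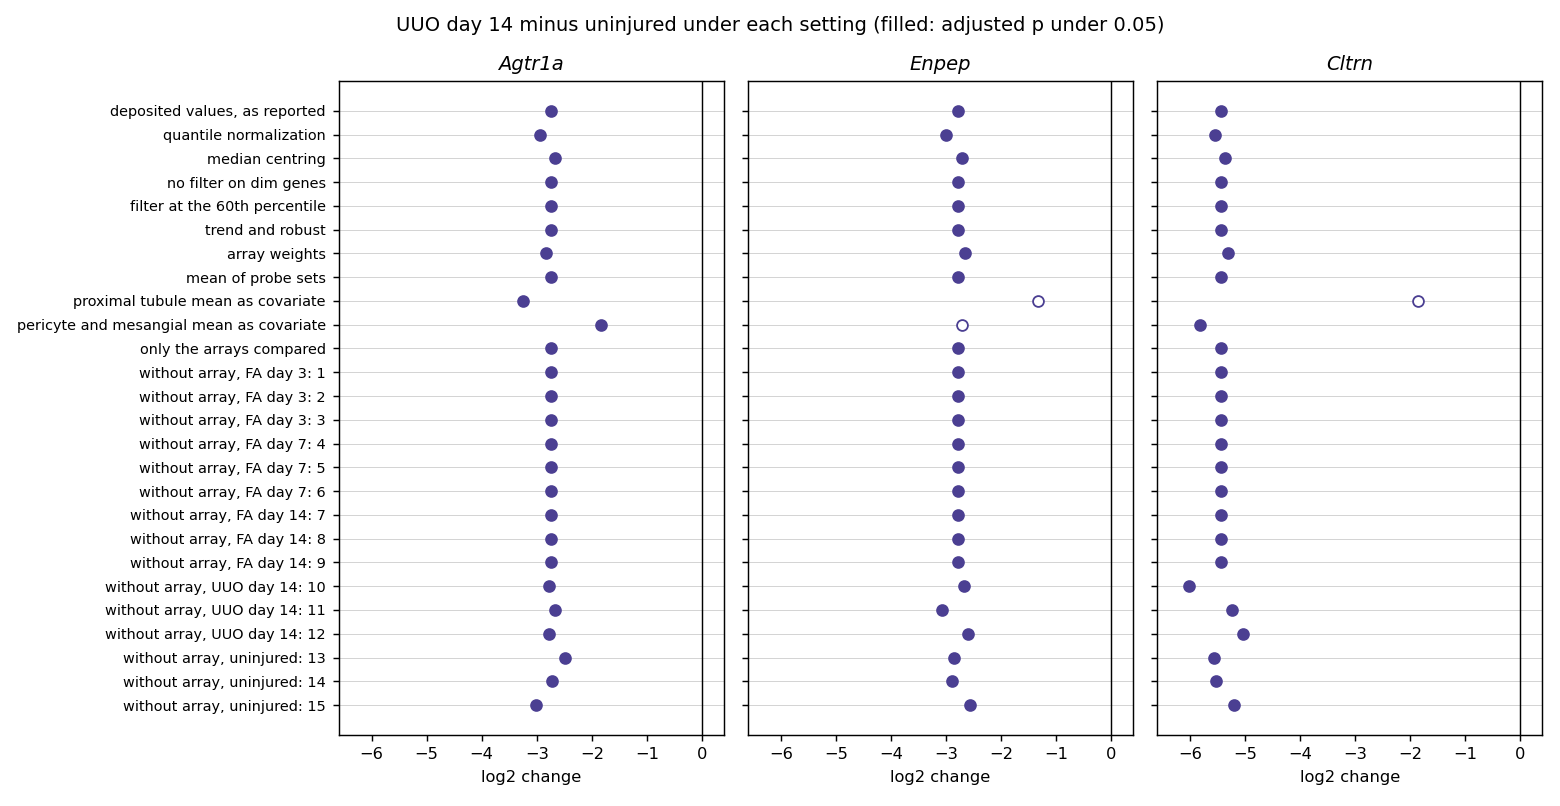
Log2 change of Agtr1a, Enpep and Cltrn in UUO against uninjured kidney (horizontal axes) under each processing setting and with each array left out in turn (rows), with filled points for adjusted p under 0.05. The Agtr1a change stays between -3.25 and -1.83 and is filled throughout, while the Cltrn point is open at -1.86 and the Enpep point at -1.34 when the tubule marker mean is a covariate, and the Enpep point also at -2.72 with the pericyte and mesangial mean.

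The 9 measured distal nephron markers averaged 6.23, 6.97, 8.13 and 5.68 in the injury groups, against 8.49 in uninjured kidney, and in the same order 6, 4, 1 and 8 of 9 were called lower. The 6 measured podocyte markers averaged 5.63, 6.19, 6.58 and 5.94, against 7.20, and 4, 3, 0 and 3 of 6 were called lower. The 8 measured lymphocyte and neutrophil markers averaged 4.83, 5.08, 5.36 and 5.05, against 4.90, with 0 of 6 tested called by limma in any injury group; unadjusted p-values under 0.05 numbered 0 on day 3 after folic acid, 1 on day 7, 2 on day 14 and 0 in UUO. Their part in the results for the members was not tested.

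**Figure D4:**
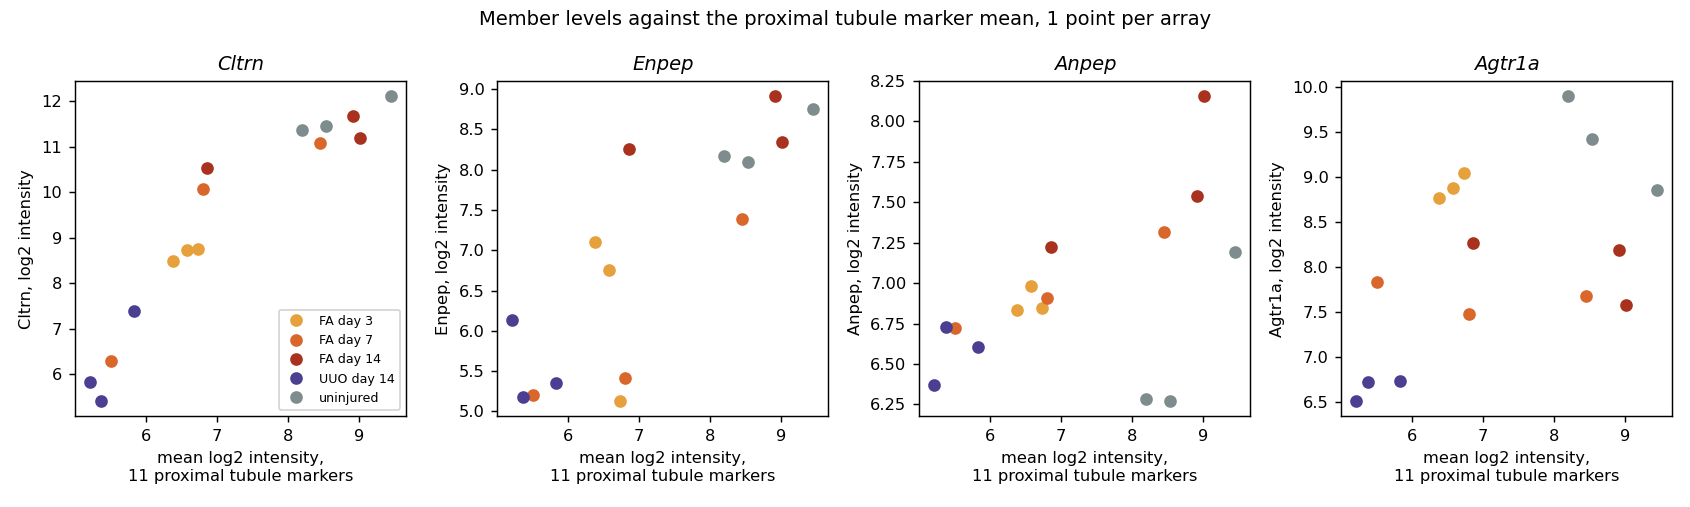
Log2 intensity of Cltrn, Enpep, Anpep and Agtr1a (vertical axes) in each array against the mean log2 intensity of the 11 measured proximal tubule markers (horizontal axis), coloured by group. Cltrn lies along the tubule mean, while the UUO arrays of Agtr1a (6.51 to 6.73) and those of folic acid day 7 (7.47 to 7.83) sit below the uninjured arrays. The tubule means of day 7 run from 5.52 to 8.46. Those of UUO run only from 5.22 to 5.83 and do not meet those of uninjured kidney (8.20 to 9.45).

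The 2 day 14 groups were compared directly, UUO over folic acid. Agtr1a, Enpep and Cltrn were lower in UUO, and the other 4 members were not called, which makes 0 higher and 3 lower of 7, where 1.28% of all genes were called higher and 1.75% lower. The Agtr1a difference was -1.36 ± 0.25 in log2 (2.56-fold lower; adjusted p = 0.013), that of Enpep was -2.95 ± 0.58 (7.71-fold lower; adjusted p = 0.0189) and that of Cltrn was -4.92 ± 0.93 (30.3-fold lower; adjusted p = 0.016). For all 3 genes, which were picked by this test, the UUO arrays lay below every folic acid day 14 array. The share of all genes without overlap was not counted. The Anpep arrays were also lower in UUO without overlap, at a difference of -1.07 that missed the threshold (adjusted p = 0.0578). Ace (0.05) and Mme (0.09) overlapped between the groups.

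The Agtr1a call was lost without array 11 (adjusted p = 0.0527), the Enpep call without array 8, 10 or 12 and the Cltrn call without array 8, 11 or 12, with adjusted p-values up to 0.069. With the tubule mean as a covariate the differences were -1.80 for Agtr1a (adjusted p = 0.0839), -1.71 for Enpep (0.607) and -1.86 for Cltrn (0.621), and none was called. With the pericyte and mesangial mean they were -0.70 (0.0721), -2.90 (0.0787) and -5.20 (0.0554), also without a call, and a fit of only the arrays compared lost the Agtr1a call (0.0701). The tubule mean lay between 5.22 and 5.83 in UUO, against 6.86 and 9.02 at day 14. The tubule fit thus extends a line over a gap that no array of those groups fills. The pericyte and mesangial means, 6.16 to 6.46 against 6.48 to 7.23, lay just apart.

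Among the folic acid days, Agtr1a was lower at day 7 than at day 3, by a log2 difference of -1.23 ± 0.25 (2.35-fold lower; adjusted p = 0.0425), the 1 call among the 7, where 0.274% of all genes were called higher and 0.422% lower. That call was lost without array 1, 2, 3, 4, 5, 10, 11, 12 or 14, with adjusted p-values up to 0.149. No member was called in day 14 against day 7 (0.0518% of all genes) or in day 14 against day 3 (3.05%) by limma, with unadjusted p-values under 0.05 for 2 and 4 of the 7 members. Enpep was 2.50 higher in log2 at day 14 than at day 7 (adjusted p = 0.173) and 2.17 higher than at day 3 (0.0692), with no overlap of arrays. Cltrn was 2.48 higher at day 14 than at day 3 (adjusted p = 0.19), also without overlap.

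Other genes of the angiotensin pathway were read from a list of 18, of which 14 were measured and 11 tested. At day 3 and at day 7, 0 were called higher and 2 lower. At day 14 it was 0 higher and 1 lower, and in UUO 1 higher and 2 lower. The median log2 changes of the list were 0.00, -0.01, 0.02 and -0.09 in those groups. Atp6ap2, the prorenin receptor, which is also a subunit of the vacuolar proton pump, was lower in all 4 injury groups. It measured 11.06, 10.94 and 10.96 on day 3, 11.30, 11.05 and 11.36 on day 7, 11.07, 11.92 and 11.45 on day 14 and 11.30, 11.20 and 11.30 in UUO, against 12.16, 12.12 and 12.17 in uninjured kidney. No injured array reached the uninjured level.

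The log2 change of Atp6ap2 was -1.16 at day 3 (adjusted p = 0.000945), -0.92 at day 7 (0.00629), -0.67 on day 14 (0.0484) and -0.88 in UUO (0.00524). The day 14 call held in 1 of the 15 fits that left out an array, the other 3 in all 15. Of the 10 other settings the calls held in 10 at day 3, 9 at day 7, 3 on day 14 and 8 in UUO. The UUO call was lost with the tubule mean as covariate (-0.87, adjusted p = 0.186) and with the pericyte and mesangial mean (-0.56, 0.263). The day 7 call was lost with the pericyte and mesangial mean (-0.69, 0.0987). Hsd11b2, the collecting duct enzyme that inactivates glucocorticoid and so protects the mineralocorticoid receptor, was lower at day 3 (-2.09, adjusted p = 0.00988), day 7 (-1.75, 0.033) and in UUO (-2.77, 0.00191), and it was lower in UUO than at folic acid day 14 (-2.96, 0.00847). With the tubule mean as covariate its changes were -1.40, -1.17, -1.72 and -2.07 in that order, with adjusted p-values between 0.187 and 0.373. That mean holds proximal tubule markers, and a fit with the distal nephron markers was not made.

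Agtr2, the AT2 receptor gene, measured 4.18, 6.07 and 6.55 in UUO, against 4.11, 4.28 and 4.27 in uninjured kidney. A pair of UUO arrays was high, and the remaining one lay at the uninjured level, as did the folic acid arrays, which ran from 4.11 to 4.58. The log2 change in UUO was 1.38 ± 0.43 (adjusted p = 0.0458), which was called in 1 of the 12 fits with an array left out that still tested the gene. Agtr2 passed the filter on dim genes through the 2 high UUO arrays and array 4, so it was tested because of the group in which it is high, and its call supports nothing. Mas1, the receptor gene for angiotensin 1-7, was measured but dim and was not tested.

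Of the genes that carry or limit the AT1 receptor signal, 18 were tested. At day 3, 1 was called higher and 1 lower, at day 7 1 and 0, at day 14 0 and 0, and in UUO 0 and 5, and the list medians were 0.17, -0.03, 0.17 and -0.25. In UUO the regulators of G protein signalling Rgs2 (-2.92, adjusted p = 0.00862) and Rgs5 (-1.39, 0.0208) fell, with Prkca, a protein kinase C gene (-2.37, 0.0264), and Nox4, an NADPH oxidase gene of tubule and mesenchymal cells (-2.95, 0.0409). Rgs4 (-0.67, 0.0469) completes the 5 and was named after its value was seen, and its call was not checked under the other settings. Rgs2 measured 7.46, 5.57 and 6.92 in UUO, against 10.26, 9.76 and 8.71 in uninjured kidney. The 2 groups of Rgs2 arrays were apart. With the tubule mean as a covariate Nox4 turned to 0.68 (adjusted p = 0.753), and Rgs2 (-4.18, 0.0639), Rgs5 (-2.23, 0.0657) and Prkca (-3.67, 0.0964) were not called. With the pericyte and mesangial mean they were -1.04 (0.534), -0.46 (0.672) and -1.12 (0.586). With an array left out, the Nox4 call was lost in 6 and the Rgs5 call in 5 of 15 fits. The Prkca call in UUO was lost in 4 of them and the Rgs2 call in 0.

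At folic acid day 3 Gna11, a G protein alpha subunit gene, rose by 1.00 (adjusted p = 0.00918) and Prkca fell by 2.58 on the log2 scale (adjusted p = 0.0173). The Gna11 call rests on which of its probe sets stands for the gene: with quantile normalization another probe set did so, and the change was -0.31 (adjusted p = 0.432). The call was also lost in 8 of the 15 fits with an array left out. At day 7 Egfr, the epidermal growth factor receptor gene, rose by 1.70 (adjusted p = 0.012). Without array 5 the change was 0.82 (0.147), and it was not called with the tubule mean (1.79, 0.0526) or the pericyte and mesangial mean (1.16, 0.169) as covariate, or in a fit of only the arrays compared (0.0635).

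The brush-border genes beside Enpep, Anpep and Cltrn were read from 2 further lists. Of 6 tested peptidases 1 was called higher and 2 lower on day 3 after folic acid, 0 and 1 on day 7, 0 and 0 on day 14 and 0 and 2 in UUO, with list medians of -0.77, -0.95, -0.15 and -0.87. Mep1a, a meprin subunit gene, and Folh1, a glutamate carboxypeptidase gene, changed by -2.76 (adjusted p = 0.0104) and -2.84 (0.00585) in UUO and by -2.42 (0.0209) and -2.16 (0.0251) at day 3. Folh1 was also lower at day 7 (-2.05, 0.0418). Dpep1, a dipeptidase gene, was higher at day 3 (2.53, adjusted p = 0.0195). Dpp4 was lower in UUO than at folic acid day 14 (-1.94, adjusted p = 0.0459). None of these was called with the tubule mean as a covariate: Mep1a was -0.05 (0.975) and Folh1 -0.54 (0.716) in UUO, Mep1a -0.62 (0.419) and Folh1 -0.63 (0.487) at day 3, Folh1 -0.77 (0.354) at day 7, Dpep1 2.84 (0.0826) and Dpp4 -0.65 (0.878). The Folh1 call at day 7 was lost in 9 and the Dpp4 call in 11 of the 15 fits with an array left out.

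Of 7 tested amino acid transporters of the brush border, whose surface level collectrin supports, 1 was called lower at day 3, 0 at day 7 and day 14 and 5 in UUO, none of them higher, with list medians of -1.86, -1.19, -0.54 and -2.13. Slc3a1, part of the cystine transporter, measured 5.65, 5.04 and 6.63 in UUO, against 8.02, 8.10 and 9.37 in uninjured kidney. Its UUO arrays were all below the uninjured arrays, at a log2 change of -2.72 (adjusted p = 0.0062). The proton-coupled transporter Slc36a1 changed by -1.49 (0.0164), the imino acid transporter gene Slc6a20b by -1.98 (0.022) and the glutamate transporter gene Slc1a1 by -2.36 (0.04). Slc6a19, a neutral amino acid transporter that collectrin carries to the membrane, was the fifth (-3.07, adjusted p = 0.0451) and was named after its value was seen. It measured 4.47, 4.29 and 4.06 in UUO, against 6.46, 6.56 and 8.99 in uninjured kidney, where array 15 stood apart. Its call was not checked under the other settings. Slc6a20b was the call of day 3 (-1.88, 0.0287), and Slc3a1 was lower in UUO than at folic acid day 14 (-2.90, 0.0188). With the tubule mean as a covariate Slc3a1 (-0.78, 0.638) and Slc36a1 (-0.92, 0.51) were not called in UUO, and Slc6a20b (0.29, 0.783) and Slc1a1 (0.58, 0.717) turned sign. Leaving out an array lost the UUO call in 8 of 15 fits for Slc1a1, 5 for Slc6a20b, 1 for Slc36a1 and 0 for Slc3a1.

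The genes whose levels were most like each member were named by Pearson's r over the 15 arrays, as a description: the arrays share their groups and their tubule content. For Cltrn they were Klk1b9 (0.976), Ldhb (0.97) and Ezr (0.969), the last of which encodes the brush-border linker ezrin. For Enpep they were Dpp4 (0.942), Hook1 (0.917) and Aif1l (0.915), and for Agtr1a Dusp3 (0.929), Tns1 (0.922) and Adamts1 (0.916). Agt lay nearest to Tmem160 (0.937), Junb (0.885) and Cuta (0.881), Ace to Crat (0.918), Fndc4 (0.868) and Ptpn23 (0.857), and Anpep to Itpkc (0.881), Cndp2 (0.877) and Coq4 (0.87). Mme, with little variation between groups, had the lowest values: Cmya5 (0.779), Egln3 (0.742) and Colq (0.74).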

How the data were processed

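The 15 arrays held PDGFRa-positive fibroblasts sorted from kidney, with 3 arrays per group as the labels give them. Each array has 45141 probe sets with deposited log2 intensities. The authors' steps are known only as RMA, affy and limma, per the submitters' processing notes, with no versions or roles. No detection calls were used. Folds against dim values are compressed, and the number of arrays limits the precision. No 2 arrays were identical.

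Of the probe sets 28898 named 1 gene in the platform annotation, 551 several and 15692 none. The RefSeq mouse table matched 28689 of them by Entrez identifier and changed 0 symbols. Each of 17097 genes, 7180 with more than 1 probe set, took its brightest one by mean, and the filter on dim genes left out 3574. Group means were estimated from the 15 arrays together in R 4.3.3 by limma 3.58.1 (lmFit, eBayes, 2-sided moderated tests, Benjamini-Hochberg within each of 8 comparisons over 13523 genes, and an F test). Intervals are 95%. The fit was tested on simulated data. Plots used matplotlib 3.10.9.

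The 15 gene lists held 159 entries, of which 141 were measured and 129 tested. The text names every member, Pdgfra, the 3 tested genes with the highest correlation to each tested member, and up to 4 called genes of a list by smallest p, or 2 where none was called. The members and lists were chosen with earlier results of these data known. Alternatives were quantile normalization, median centring, no filter, a 60th percentile filter, array weights, trend and robust settings, the mean of probe sets, a fit of only the arrays compared, leaving out each array, and a fit with the proximal tubule mean as covariate. The pericyte and mesangial mean as a covariate, and the alternatives for listed genes, were added after the data were seen.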

Additional observations from a re-analysis of the deposited data

Results flagged for a closer look

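Agtr1a, Enpep and Cltrn differed between the 2 injuries at day 14. The changes of UUO and of folic acid day 14 share the uninjured arrays, so the difference was tested by comparing the injuries directly, in limma. It was -1.36 for Agtr1a (adjusted p = 0.013), -2.95 for Enpep (0.0189) and -4.92 for Cltrn (0.016) on the log2 scale, UUO minus folic acid. For each gene all 3 UUO arrays lay below all 3 folic acid arrays, which describes genes picked by that test and adds no support to it. The proximal tubule mean was 5.22 to 5.83 in UUO, against 6.86 to 9.02 at folic acid day 14, and its part in these differences was not tested beyond the covariate fit, in which none was called. None was called with the pericyte and mesangial mean as covariate either (adjusted p = 0.0721, 0.0787 and 0.0554), and a fit of only the arrays compared lost Agtr1a (0.0701). Neither marker mean overlaps between these groups, and the tubule fit extends a line over the gap given above. Agtr1a also differed between folic acid days, by -1.23 at day 7 against day 3 (adjusted p = 0.0425), with no overlap of arrays.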

How the results depend on the processing

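Against uninjured kidney, the calls of Agtr1a at folic acid day 7 and in UUO held under all 10 other settings and all 15 left-out arrays, with log2 changes of -2.02 to -1.09 and -3.25 to -1.83 over the settings. The covariate fits for UUO among these settings cross the gap in marker means given above. The filter settings, trend and robust settings, the mean of probe sets and only the arrays compared left the Agtr1a change in UUO at -2.74. The Enpep and Cltrn calls in UUO held under 8 and 9 of 10 settings and with every array left out. The proximal tubule mean as a covariate changed the count of members called to 0 at folic acid day 3, 1 in UUO and 0 in UUO against day 14. The pericyte and mesangial mean changed it to 1 at day 3, 1 at day 7, 1 at day 14, 1 in day 14 against day 3 and 0 in day 7 against day 3. Only the arrays compared gave 0 at day 14, 1 in day 14 against day 3 and 0 in day 7 against day 3. Quantile normalization, no filter, trend and robust settings and array weights each gave 0 in day 7 against day 3. Quantile normalization also lost the calls of Ace at day 7 (adjusted p = 0.0559) and Anpep at day 14 (0.066). Only the arrays compared lost that of Enpep at day 7 (0.0646). Calls were gained for Agtr1a at day 3 (adjusted p = 0.0379) and Agt at day 14 (0.0499) with quantile normalization, for Agt at day 14 (0.048) and Ace in UUO (0.0218) with array weights, for Ace in UUO with median centring (0.037), and for Ace in UUO (0.0474) and Anpep in UUO against day 14 (0.0476) with the mean of probe sets. The pericyte and mesangial mean gained Agt (0.0298) and Anpep (0.0192) in UUO against day 14. Median centring and no filter each gave 1 at day 3, trend and robust settings 1 at day 14, and array weights 5 in the F test. With 1 array left out the counts were 0 to 2 at day 3, 1 to 3 at day 7, 1 to 2 at day 14, 3 to 4 in UUO, 1 to 4 in UUO against day 14, 0 to 1 among the folic acid days and 3 to 4 in the F test. The share of all calls that were higher was 62.5%, 64.2%, 74.1% and 54.7% at day 3, day 7, day 14 and in UUO, against 51%, 51.6%, 59.4% and 48.3% with quantile normalization and 71.8%, 71.9%, 81.1% and 62% with median centring; the median of all genes moved by less than 0.1 in each.

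Of the changes that turned sign, those of members had not been called. For these the cause was not tested. Enpep at day 14 was -0.076 with quantile normalization, and Gna11 at day 3 was -0.31. Anpep in UUO was 0.047 with median centring, 0.13 with array weights and 0.96 with the tubule covariate. Array weights also gave -0.0082 for Ace in day 14 against day 3, -0.022 for Mme in UUO against day 14 and -0.0022 for Mme in day 7 against day 3. The tubule covariate gave -0.14 for Ace in day 14 against day 3, -0.0026 for Agt and -0.013 for Anpep in day 7 against day 3, 0.20 for Mme in UUO, -0.079 in day 14 against day 7 and -0.012 in day 14 against day 3, and 0.68, 0.58 and 0.29 for Nox4, Slc1a1 and Slc6a20b in UUO. The pericyte covariate gave -0.078 for Ace in UUO against day 14, -0.38, -0.048 and -0.66 for Agt in day 7 against day 3, at day 7 and in UUO, -0.041 for Agtr1a in day 14 against day 7, -0.37 and -0.19 for Anpep in day 7 against day 3 and at day 7, and -0.048 and 0.11 for Mme in day 14 against day 7 and in UUO.

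With an array left out, calls were gained for Anpep in UUO against day 14 without array 4, 9 or 15 (adjusted p 0.0495, 0.0293 and 0.0316), for Ace in UUO without array 7 (0.03), for Enpep in day 14 against day 7 (0.0297) and against day 3 (0.0217) without array 4, and in day 14 against day 3 for Cltrn without array 6 (0.0156) and Agtr1a without array 15 (0.0436). With 1 array left out, the changes that turned sign ranged as follows. Agt spanned -0.16 to 0.15 in day 7 against day 3 and -0.019 to 0.15 in UUO. Ace spanned -0.11 to 0.14 in day 14 against day 3 and -0.10 to 0.22 in UUO against day 14. Enpep spanned -1.02 to 0.074 in day 7 against day 3 and -0.034 to 0.38 at day 14, and Anpep -0.073 to 0.23 in day 7 against day 3 and -0.17 to 0.29 in UUO. Cltrn spanned -0.47 to 1.92 in day 7 against day 3. Mme spanned -0.24 to 0.47 in day 7 against day 3, -0.18 to 0.50 in day 14 against day 3, -0.29 to 0.37 in day 14 against day 7, -0.53 to 0.13 at day 7, -0.46 to 0.027 at day 14, -0.29 to 0.061 in UUO and -0.13 to 0.39 in UUO against day 14. No paired analysis was possible because the array numbers run on through the groups and no 2 groups share one.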

Other observations

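The kallikrein-kinin genes, whose peptides neprilysin and angiotensin-converting enzyme also cut, held 5 tested genes. None was called higher in the injury groups against uninjured kidney, and the genes called lower numbered 1 on day 3 and 1 on day 7 after folic acid, 0 on day 14 and 3 in UUO. Klk1, the tissue kallikrein of the distal nephron, measured 7.42, 7.05 and 6.28 in UUO, against 11.87, 11.99 and 12.13 in uninjured kidney. The groups were far apart, at a log2 change of -5.08 (adjusted p = 6.58e-05), and with the tubule mean as a covariate it was -3.11 (0.0219). That mean is made of proximal tubule markers. No fit used the distal nephron markers, so their part was not tested. Klk1 was also lower at day 3 (-2.32, 0.0104) and day 7 (-1.79, 0.0475), and lower in UUO than at folic acid day 14 (-4.64, 0.00164). Kng1, the kininogen gene (-1.70, 0.0222), and Cpm, a carboxypeptidase gene (-1.04, 0.0262), were lower in UUO. Under the tubule covariate Kng1 (-0.56, 0.738) and Cpm (-1.38, 0.18) were not called in UUO, nor was Klk1 at day 3 (-1.01, 0.24), at day 7 (-0.70, 0.402) or in UUO against day 14 (-2.95, 0.0718). The day 7 call of Klk1 held in 3 of the 15 fits that left out an array.

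Of 10 tested endothelin and natriuretic peptide genes limma called 0 in any injury group against uninjured kidney, with 3, 0, 1 and 2 of them under an unadjusted p of 0.05 at day 3, day 7, day 14 and in UUO. The UUO pair was Nppc, the C-type natriuretic peptide gene (0.79, adjusted p = 0.0747), and Ednrb, an endothelin receptor gene (0.90, 0.159). Nppc measured 4.48, 6.00 and 5.51 in UUO, against 4.47, 4.66 and 4.49 in uninjured kidney. Its change thus came from arrays 11 and 12, while array 10 lay at the uninjured level.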
